A study of Bos taurus with 12 samples.

Results

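The genes described here are the machinery with which the endoplasmic reticulum (ER) of the endometrium takes in, folds, glycosylates and checks the proteins a cell secretes, together with the main genes of the unfolded protein response (UPR). They were chosen as a list of 40 gene symbols by function. The rule uses no measured value, but the list was drawn up with earlier results of these data known. Of the 40, 38 were among the 13930 symbols of the count table, and SPCS2 and ATF6 were not analysed here. SDF2L1, a stress-induced ER chaperone partner, was listed at 0 in all 12 libraries. The other 37 passed the filter on low counts and were tested among 10959 genes in all.

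The RNA came from endometrial biopsies of grazing dairy cows (Bos taurus) and was sequenced as poly(A)-selected, strand-specific mRNA libraries. The 12 libraries fall into 4 classes of 3 by the cow's progesterone concentration on day 4 of the oestrous cycle. The classes are very low (below 0.25 ng/ml, sample titles with ANE), low (below 1.4, printed as mg/dl in the labels, titles with LPP4), high (above 2.5 ng/ml, titles with HPP4) and very high (above 20 ng/ml, titles with SO). The labels do not explain these title abbreviations or name a treatment, and they give no age, breed or parity of the cows. They also leave unsaid whether the 3 libraries of a class are from 3 cows. The p-values below therefore measure the spread between these libraries only, which may not be a spread between cows.

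Secreted and membrane proteins enter the ER through the SEC61 channel and its partner, the translocon-associated protein complex of SSR subunits. There the signal peptide is removed, N-glycans are attached, and chaperones and disulfide isomerases fold the chain. When unfolded proteins build up, the sensors ATF6, IRE1 and PERK act through ATF6, XBP1 and ATF4 to raise many of these same genes. The endometrial glands and stroma secrete the proteins that feed the early embryo, and progesterone governs much of that secretion.

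Library totals ran from 3772564 counts (very low replicate 2) to 8379489. Marker lists were scored in each library as the mean log2 CPM (counts of a gene scaled to the library) of a list, as a reading of tissue make-up. Only the macrophage and dendritic cell score separated the low and very low classes from the high and very high. All 15 smooth muscle markers were tested. Their score was 9.10 to 10.38 in the 6 libraries with more progesterone and 4.81 to 6.15 in 5 of the 6 others, but 11.49 in very low replicate 1. The epithelial score (11 of 14 markers tested) was 3.74 in that library and 6.66 to 8.78 in the other 11. The macrophage and dendritic cell score (6 of 12 tested; AIF1, C1QA, C1QB and C1QC listed at 0) was 4.07 to 6.05 in the 6 low and very low libraries and 2.68 to 3.83 in the 6 others, with no overlap. Their summed level was 147 to 578 CPM against 46.0 to 111 CPM. The plasma and B cell score (6 of 10 tested) ran from 3.01 to 6.43 against 1.74 to 4.65. The neutrophil score (7 of 8 tested) was 2.20 to 7.41 against 1.86 to 3.36. Stromal fibroblast (8.78 to 11.29) and endothelial (3.67 to 5.28) scores overlapped between the lower and the upper classes. On the slope test described below, 4 of 6 macrophage, 2 of 11 epithelial and 2 of 7 neutrophil markers fell, and none of the 15 smooth muscle, 10 stromal, 10 endothelial or 6 plasma and B cell markers passed. The part of these cell types in the results on the ER genes was not tested, apart from the fits with marker scores given below. In such bulk samples, fewer cells of a secretory type and less RNA per cell cannot be told apart.

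The 38 ER genes held more of the library in the low and very low progesterone classes. Their summed share of all counts was 1.10%, 1.44% and 1.09% in the very low libraries, 1.14%, 1.10% and 1.35% in the low, 0.954%, 0.935% and 1.06% in the high, and 0.993%, 0.924% and 0.962% in the very high. The 6 libraries with less progesterone were all above the 6 with more, and the shares of the very low and low classes overlapped, as did those of the high and very high. Very low replicate 2 and low replicate 3 stood highest.

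**Figure D1:**
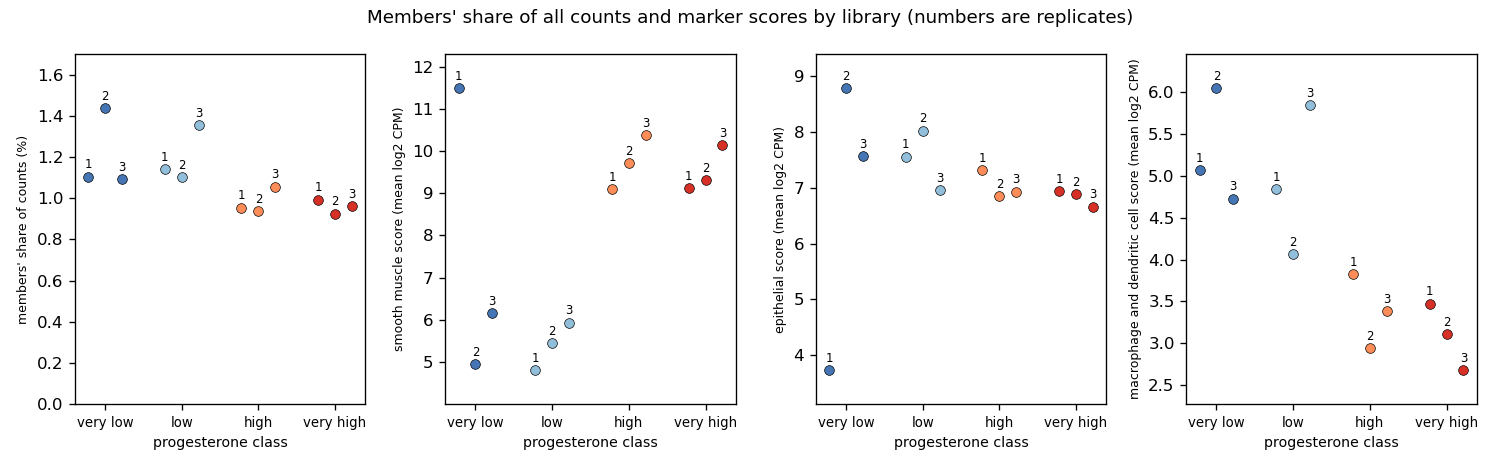
Members' share of all counts (percent) and the smooth muscle, epithelial and macrophage marker scores (mean log2 CPM), 1 dot for each of the 12 libraries by progesterone class, with replicates 1 to 3 from left to right. The share lies between 1.09% and 1.44% in the very low and low classes and between 0.924% and 1.06% in the others, and very low replicate 1 stands alone in its class on the muscle and epithelial scores.

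Over the 4 classes taken as ranks 1 to 4, 8 of the 37 tested ER genes fell with progesterone and none rose (edgeR quasi-likelihood test, Benjamini-Hochberg adjusted p under 0.05 over all tested genes). The background was 7.48% of all tested genes called, with 4.46% called falling and 3.02% rising. The 8 were the subunits RPN1, RPN2 and DDOST of the glycan-transferring complex, SSR4 and TRAM1 of the translocon, the disulfide isomerases P4HB and PDIA4, and the retrieval receptor KDELR2. Their slopes ran from -0.19 to -0.54 on the log2 scale per class. All 20 members with an unadjusted p under 0.05 had a negative slope, where 16.7% of all tested genes had a negative slope at that level. Of the 37 slopes, 33 were negative against 57.9% of all tested genes, and the median slope was -0.20 against -0.04.

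**Figure D2:**
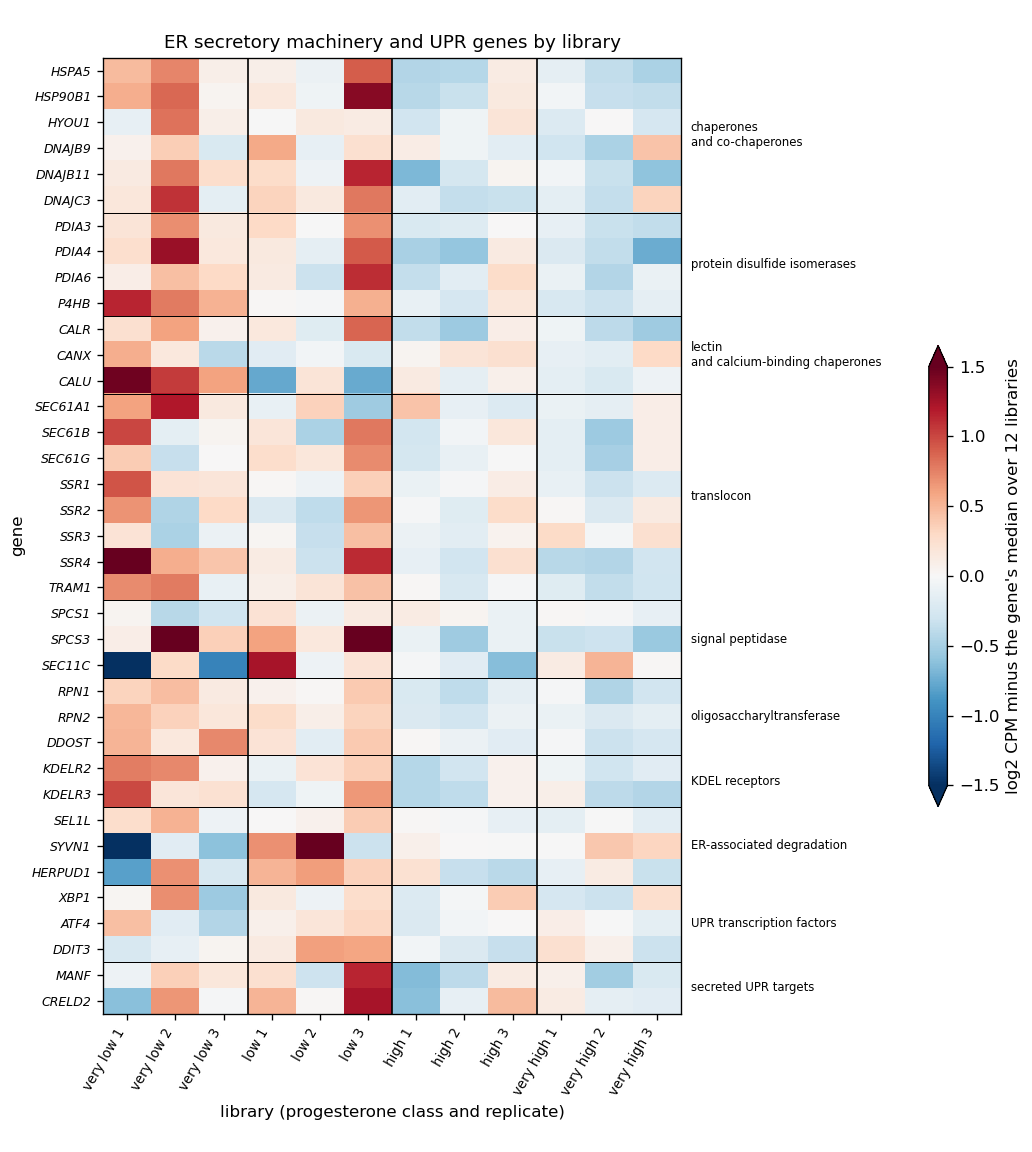
Level of each of the 37 tested genes (rows, grouped by role) in each of the 12 libraries (columns, in class order) as log2 CPM minus that gene's median over the 12 libraries, with colours saturating at the ends of the scale. Most rows are red in very low replicates 1 and 2 and in low replicate 3 and blue in most high and very high libraries, while SEC11C and SYVN1 are bluest in very low replicate 1.

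These 8 calls lie close to the threshold, with adjusted p between 0.0321 and 0.0497 in edgeR. The count was 0 without very low replicate 2, without high replicate 1 or 2, and without any 1 of the 3 very high libraries. In those refits 0.00902% to 2.51% of all tested genes were called, against 7.48% with all libraries. The count was 1 without high replicate 3, with 2.51% of all genes. It was 4 to 7 without each of the other 5, with 4.8% to 13.2% of all genes. Not all of these were among the 8. Without very low replicate 1, 7 members were called, of which 5 were among the 8, and PDIA3 and SPCS3 were new. The median slope of the members stayed negative in each of these 12 refits, from -0.22 to -0.18. When the smooth muscle score was added to the fit, 11 members were called, among them SEC11C and SYVN1 as rising, with 14.5% of all genes. Of the 8, 6 were called again, and RPN1 and PDIA4 were not. With the smooth muscle and epithelial scores together none was called, with 0.42% of all genes, and the median slope of the members was -0.12.

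**Figure D3:**
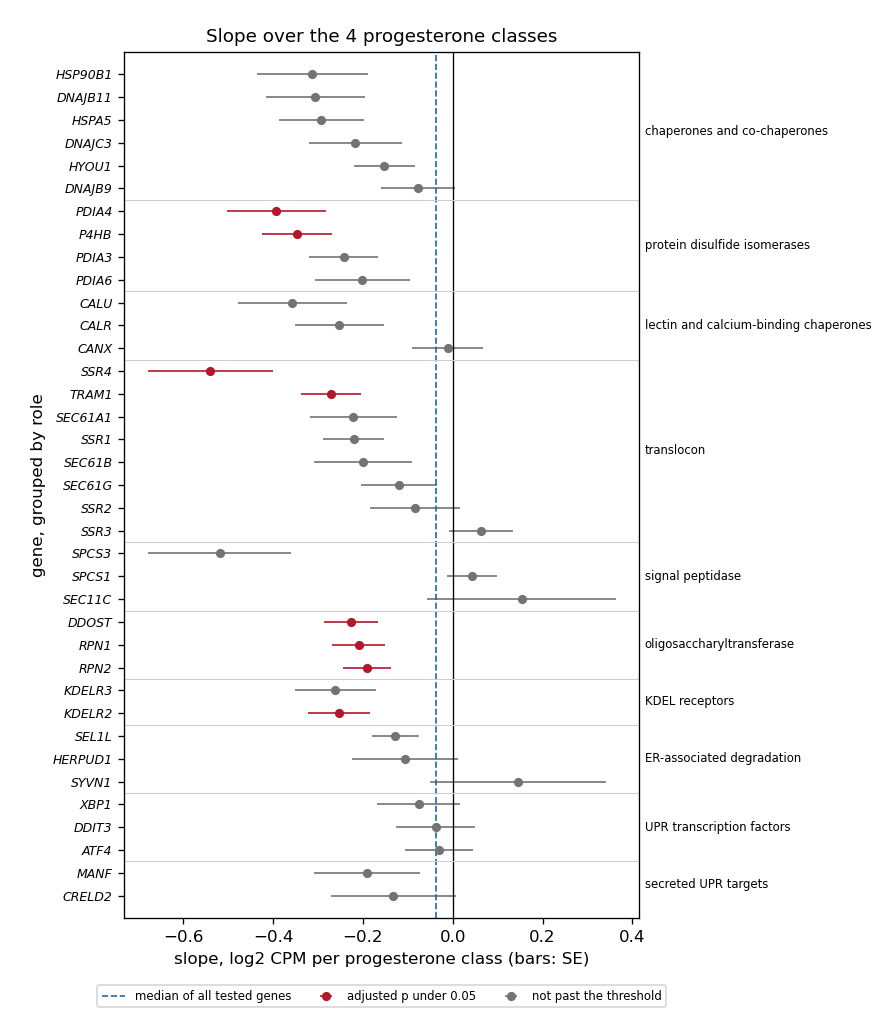
Slope of each tested gene over the 4 class ranks (log2 CPM per class; bars are standard errors), grouped by role, with red for genes past the adjusted threshold and a dashed line at the median of all tested genes, -0.04. The 8 red genes lie between -0.19 and -0.54, and SSR3, SPCS1, SYVN1 and SEC11C are the only genes of the 37 with a positive slope.

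Between the ends of the range, very high against very low, no member passed the adjusted threshold in edgeR, where 1.52% of all tested genes did. Unadjusted, 16 members had a p under 0.05 and all 16 were lower in the very high class, beside 13.4% of all tested genes called lower at that level. That count was 8 without very high replicate 2, 7 without very high replicate 3, 18 without very low replicate 3 and 19 without low replicate 3. All tested genes at that level, in either direction, went from 2609 to 1738, 1859, 2826 and 2787 in these refits. The members numbered 11 to 17 without each other library. DESeq2, run as an alternative, called 11 members, all lower, and 13.8% of all genes. The libraries of the 2 classes did not overlap for 19 members that were lower and for SYVN1, which was higher, where 12.2% and 13.4% of all genes behaved so. The median member difference was -0.50 against -0.12 for all tested genes. With library totals alone as the scale, the median of all genes moved to 0.09 and that of the members to -0.32, and the members below 0 went from 32 to 27. The smallest p values among members that missed the threshold belonged to CALU (log2 difference -1.23, SE 0.29), P4HB (-1.07, SE 0.26) and TRAM1 (-0.79, SE 0.23), with edgeR adjusted p of 0.0568, 0.0617 and 0.0839. SYVN1 (0.93, SE 0.43), SEC11C (0.89, SE 0.57) and SSR3 (0.26, SE 0.24) led in the other direction with edgeR adjusted p of 0.220, 0.364 and 0.528.

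At the step from low to high progesterone, 34 of the 37 member differences were below 0, against 51.9% of all tested genes, but none passed. No gene of the 10959 passed in edgeR (0% called), and DESeq2 called 1 member, RPN2, with 2.2% of all genes. Without adjustment 6 members had a p under 0.05, all lower in the high class, where 6.11% of all tested genes were. That count was 15 without low replicate 2, 2 without low replicate 3, 3 when high replicate 1 was left out and 1 when high replicate 2 was. All tested genes at that level, in either direction, went from 1125 to 1461, 756, 1108 and 539 in these refits. The median difference was -0.42 against -0.02 for all tested genes. Without low replicate 3 it was -0.23, with 28 of the 37 below 0. The classes did not overlap for 9 members that were lower in the high class (DNAJC3, SEC61G, TRAM1, SPCS3, RPN1, RPN2, HERPUD1, ATF4 and DDIT3) and for CANX, which was higher, beside 9.68% and 10.3% of all genes. The members with the smallest p were DDIT3 (-0.66, SE 0.20), SPCS3 (-1.24, SE 0.47) and RPN2 (-0.43, SE 0.17), with edgeR adjusted p of 0.351, 0.409 and 0.416. CALU (0.40), CANX (0.31) and SEC61A1 (0.11) led the positive differences, with edgeR adjusted p of 0.653, 0.715 and 0.923.

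Of the 37 member differences, 21 were below 0 for low against very low (55.2% of all tested genes) and 25 for very high against high (52.3%). For low against very low, edgeR called no gene (0%), and DESeq2 called the members CALU and SYVN1, with 2.67% of all genes. At an unadjusted p under 0.05 stood 5 members, 3 lower (CALU, SEC61A1 and P4HB) and 2 higher (SYVN1 and DDIT3), beside 11.6% of all tested genes (6.36% lower). The members at that level were 3 without low replicate 1 and 8 without very low replicate 3. All tested genes at that level went from 1269 to 643 and 1792 in these refits. The median member difference was -0.04, and it was -0.27 without low replicate 3, -0.18 without very low replicate 3, and 0.14, 0.01 and 0.15 without very low replicate 2, low replicate 1 and low replicate 2. The 5 log2 differences were -1.46 (SE 0.29) for CALU, -0.77 for SEC61A1, -0.63 for P4HB, 1.50 (SE 0.44) for SYVN1 and 0.57 (SE 0.20) for DDIT3, with edgeR adjusted p between 0.275 and 0.395. The next positive difference was that of SEC11C (1.24, edgeR adjusted p 0.441). The classes did not overlap for CALU (lower) and DDIT3 (higher), against 4.63% and 5.11% of all genes. For very high against high, no gene was called (0%) and no member had an unadjusted p under 0.05, where 0.794% of all tested genes did. DESeq2 called none of the members. The smallest p values there belonged to TRAM1, SSR1 and SSR4 (log2 differences of -0.21, -0.21 and -0.34) and to DDIT3, SSR3 and SEC11C (0.21, 0.23 and 0.48), with an edgeR adjusted p of 0.9999 for each. The libraries of those classes did not overlap for SSR1 and SSR4, which were lower in the very high class, and for SEC11C, which was higher, against 3.89% and 3.2% of all genes. The joint test of any difference among the 4 classes called no gene (0%) in edgeR, with 13 members at an unadjusted p under 0.05 against 17.8% of all tested genes. These 13 became 7 with low replicate 1 left out, where all tested genes at that level went from 1954 to 1571. They were 5 and 2 without high replicates 1 and 2 (1737 and 1393 of all genes). Without very high replicates 1, 2 and 3 they were 6, 4 and 4 (1537, 1367 and 1426). They were 16 without low replicate 2 (2091), 14 without very low replicate 3 (2177) and 9 to 13 without each other library (1608 to 2490). DESeq2 called 7 members on that test, with 11.9% of all genes.

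The class means fell in order from very low to very high for 13 members (HSPA5, HYOU1, PDIA3, PDIA4, P4HB, SEC61B, SSR1, SSR2, SSR4, TRAM1, DDOST, SEL1L and XBP1), an order held by 14.4% of all tested genes. None had means in rising order, which 9.59% of all genes did. The very low class had the highest mean for 20 members and the low class for 15, leaving CANX, highest in the high class, and SSR3, highest in the very high class. Of all tested genes 41.2% were highest in the very low class, and the share highest in the low class was not counted. The very high class had the lowest mean for 21 members, against 27.1% of all genes. For SPCS3, RPN1 and RPN2 the 6 high and very high libraries were all below all 6 low and very low libraries, a separation seen in 1.87% of all tested genes. No member had the reverse separation, which 1.55% of all genes had.

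The oligosaccharyltransferase is the complex that moves the preformed glycan onto asparagines of the entering chain, and all 3 of its listed subunits fell with progesterone class. RPN1, ribophorin I, which holds substrates near the active site, measured 353, 386 and 308 CPM in the very low class, 294, 284 and 367 in the low class, 238, 215 and 254 in the high class and 276, 204 and 228 in the very high class. RPN2, ribophorin II, measured 429, 388 and 344 CPM in the very low class, 368, 323 and 385 in the low class, 262, 249.6 and 288 in the high class and 284, 263 and 277 in the very high class. In both genes the low and very low libraries lay above all the others, while very high and high overlapped. DDOST, the subunit also known as OST48, measured 324, 255 and 375 CPM in the very low class, 262, 204 and 299 in the low class, 231, 214 and 202 in the high class and 224, 182 and 191 in the very high class. Very low values were all above very high ones, but low replicate 2 lay below high replicates 1 and 2. The slopes were -0.21 (SE 0.06, edgeR adjusted p 0.0479) for RPN1, -0.19 (SE 0.05, edgeR adjusted p 0.0478) for RPN2 and -0.23 (SE 0.06, edgeR adjusted p 0.0418) for DDOST. Left out in turn, the 12 libraries left RPN1 called in 1 refit, RPN2 in none and DDOST in 2.

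Of the 8 translocon genes, 2 fell, and 7 of the 8 slopes were negative. SSR4, the delta subunit of the translocon-associated protein complex, measured 1888, 633 and 576 CPM in the very low class, 470.0, 346 and 935 in the low class, 397, 355 and 509.7 in the high class and 323, 319 and 354 in the very high class. Very low replicate 1 was far above every other library, and low replicate 3 came next, so the very low and low classes overlapped while every very low library exceeded every very high one. The SSR4 slope was -0.54 (SE 0.14, edgeR adjusted p 0.0405) and was -0.33 without very low replicate 1, with an edgeR adjusted p of 0.0659 (0.0400 to 0.0971 over the 12 refits that each leave out a library). TRAM1, a membrane protein that helps chains move into the lipid, measured 262, 275 and 149 CPM in the very low class, 171, 184 and 218 in the low class, 163, 136 and 158 in the high class and 142, 124 and 130.1 in the very high class. Its high libraries were all below its low ones, and the very low class held both the 2 highest values and, in replicate 3, a value within the high class. The TRAM1 slope was -0.27 (SE 0.07, edgeR adjusted p 0.0367).

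The channel itself, made of SEC61A1, SEC61B and SEC61G, missed the threshold. SEC61A1, the pore-forming alpha subunit, had class means of 141, 83.0, 89.8 and 83.7 CPM from very low to very high, with a highest value of 198 CPM in very low replicate 2. The means of SEC61B, the beta subunit, were 289.9, 264, 215 and 196 CPM, and those of SEC61G, the gamma subunit, 129.9, 166, 116 and 113 CPM. Their slopes were -0.22, -0.20 and -0.12 with edgeR adjusted p of 0.158, 0.247 and 0.378. Among the other SSR subunits, SSR1 had means of 422, 325, 301 and 260.4 CPM and a slope of -0.22 (edgeR adjusted p 0.0656). SSR2 (slope -0.08) and SSR3 (slope 0.06) had edgeR adjusted p of 0.614 and 0.588, and SSR3 had means of 203 ± 46.7 (very low) and 244 ± 28.1 CPM (very high; SD, n = 3 each). SSR3 overlaps the tested gene KCNAB1 in the annotation, so reads could be shared. The difference between the SSR4 and SSR3 slopes was not tested.

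**Figure D4:**
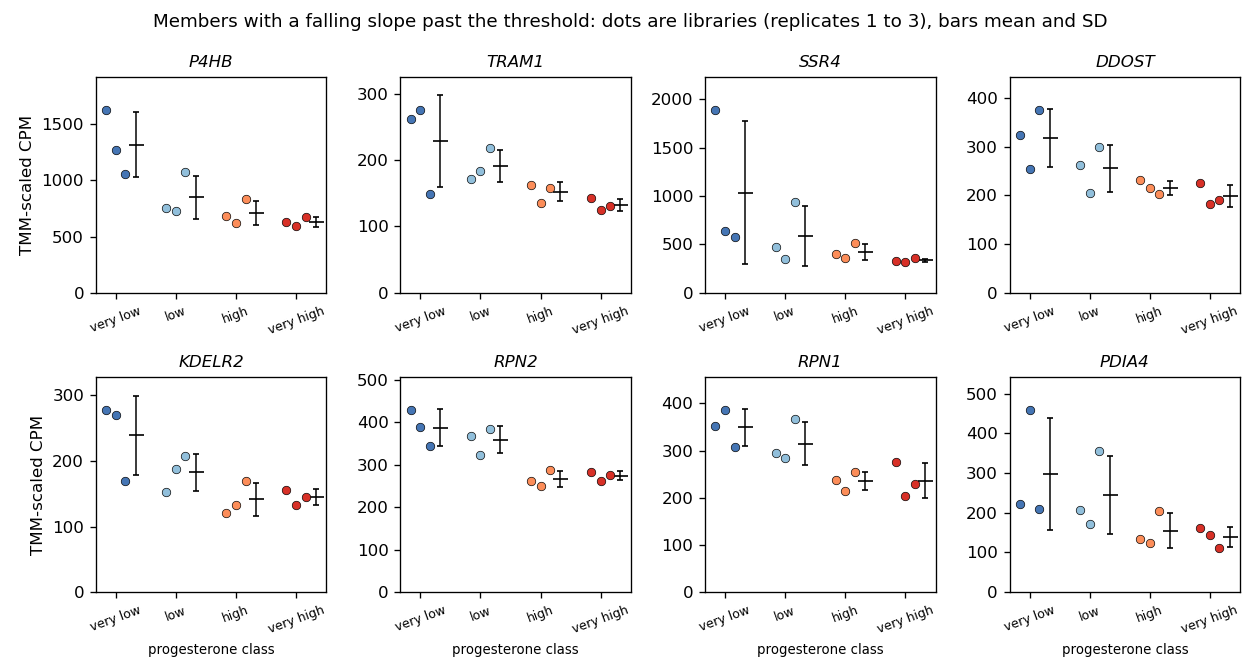
TMM-scaled CPM of the 8 genes past the slope threshold in each library (dots, replicates 1 to 3 from left to right in each class; bars are the mean and SD, n = 3), each axis starting at 0. In every panel the 3 very high libraries lie below the 3 very low ones, and the SD is largest in the very low class for all but RPN1, led by replicate 1 for P4HB and SSR4 and by replicate 2 for PDIA4.

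Protein disulfide isomerases form and reshuffle disulfide bonds, and 2 of the 4 fell. P4HB, protein disulfide isomerase itself and also the beta subunit of prolyl 4-hydroxylase in collagen synthesis, measured 1628, 1272 and 1057 CPM in the very low class, 751, 727 and 1072 in the low class, 686, 622 and 830.4 in the high class and 626, 591 and 674 in the very high class. The means were 1319 ± 288, 850.1 ± 192, 713 ± 107 and 630.4 ± 41.8 CPM (SD, n = 3 each), so that the fitted very high level was 2.09-fold below the very low. Every very low library except replicate 3, which low replicate 3 exceeded, lay above all 9 others. The P4HB slope was -0.35 (SE 0.08, edgeR adjusted p 0.0321), the smallest adjusted p among the members, and it stayed called in 6 of the 12 refits. PDIA4, the isomerase ERp72, measured 223, 459 and 209 CPM in the very low class, 207, 171 and 355 in the low class, 133, 125 and 205 in the high class and 161, 145 and 111 in the very high class. Very low replicate 2 and low replicate 3 carried its highest values, and the other low libraries overlapped the high class. Its slope was -0.39 (SE 0.11, edgeR adjusted p 0.0497). PDIA3, the isomerase that works with calnexin and calreticulin, ran over 501 to 1053 CPM and had a slope of -0.24 (edgeR adjusted p 0.0684). PDIA6 had a slope of -0.20 (edgeR adjusted p 0.233) and a highest value of 772 CPM in low replicate 3. PDIA3 and PDIA6 overlap other tested genes in the annotation (CATSPER2 and ATP6V1C2), so reads could be shared.

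The 6 tested chaperones and co-chaperones all had negative slopes, 4 of them at an unadjusted p under 0.05, but none passed the adjusted threshold. HSPA5 (BiP), the ER HSP70 that binds unfolded chains and holds the UPR sensors inactive, measured 716, 858 and 551 CPM in the very low class, 548, 487 and 972 in the low class, 382, 383 and 561 in the high class and 471, 400.5 and 371 in the very high class. The highest value was in low replicate 3 and the lowest in very high replicate 3. All 3 very low libraries were above all 3 very high ones, and so were all 3 low libraries, while the low class overlapped the very low and high classes. The HSPA5 slope was -0.29 (SE 0.09, edgeR adjusted p 0.0718), and its very high minus very low difference was -0.77 (SE 0.31, edgeR adjusted p 0.166). HSP90B1 (GRP94), the ER HSP90, measured 950.2, 1183 and 673 CPM in the very low class and 727, 622 and 1682 in the low class. High-class values were 488, 519 and 721 and very high values 634, 515 and 506 CPM. Low replicate 3 was the highest library for HSP90B1 too, and its slope of -0.31 had an edgeR adjusted p of 0.124.

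The DnaJ co-chaperones, which hand clients to BiP, all had negative slopes, and differences among them were not tested. DNAJB11 had class means of 68.9, 74.6, 42.4 and 41.3 CPM from very low to very high (slope -0.31, edgeR adjusted p 0.0949). DNAJC3, which is also the PERK inhibitor p58IPK, had means of 62.4, 61.6, 37.1 and 44.2 CPM (slope -0.22, edgeR adjusted p 0.194). DNAJB9, a co-chaperone that restrains IRE1, had means of 65.7, 73.8, 60.1 and 59.0 CPM and a slope of -0.08 (edgeR adjusted p 0.570). HYOU1, the nucleotide exchange factor of BiP, had means of 109.9, 93.8, 85.8 and 79.6 CPM, with 155 CPM in very low replicate 2 (slope -0.15, edgeR adjusted p 0.169). Low replicate 3 was highest for DNAJB11 and very low replicate 2 for DNAJC3.

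Among the lectin and calcium-binding proteins, which bind glycans or calcium and hold chains in the ER, none passed the slope threshold. Calreticulin, CALR, had means of 1101, 1122, 744 and 707 CPM (slope -0.25, edgeR adjusted p 0.124), with its highest value in low replicate 3. CANX, the membrane-bound lectin partner of CALR, had means of 634, 516, 637 and 578 CPM (slope -0.01, edgeR adjusted p 0.947), and its very low libraries held both its highest and its lowest value. CALU, calumenin, a calcium-binding protein of the secretory pathway, measured 139, 105 and 76.7 CPM in the very low class, 29.4, 57.4 and 29.7 in the low class, 55.1, 45.8 and 52.8 in the high class and 45.2, 42.9 and 47.8 in the very high class. All 3 of its very low values exceeded the 9 others, and the lowest 2 values were low replicates 1 and 3. Its slope was -0.36 (SE 0.12, edgeR adjusted p 0.0835).

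KDEL receptors return escaped chaperones from the Golgi to the ER. KDELR2 measured 278, 269 and 170.3 CPM in the very low class, 153, 187 and 208 in the low class, 121, 134 and 170.2 in the high class and 156, 133 and 146 in the very high class, and fell with a slope of -0.25 (SE 0.07, edgeR adjusted p 0.0466). Very low replicates 1 and 2 were above all other libraries, and very low replicate 3 lay within the range of the low class. KDELR3 had means of 189, 148, 112 and 113 CPM and a slope of -0.26 (SE 0.09, edgeR adjusted p 0.0854). KDELR3 overlaps DDX17 in the annotation.

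Signal peptidase, which trims the signal peptide, had members with opposite signs. SPCS3, an accessory subunit, measured 24.6, 74.1 and 29.4 CPM in the very low class, 34.9, 25.6 and 78.2 in the low class, 21.3, 15.8 and 21.4 in the high class and 18.2, 18.4 and 15.6 in the very high class. Its 2 high values were again very low replicate 2 and low replicate 3, the 6 high and very high libraries were all below the 6 others, and the slope was -0.52 (edgeR adjusted p 0.0638). SEC11C, a catalytic subunit, measured 35.7, 247 and 101 CPM in the very low class, 477, 192 and 233 in the low class, 199.5, 179 and 130.0 in the high class and 219.7, 287 and 204 in the very high class. It was lowest in very low replicate 1 and highest in low replicate 1, and its slope was 0.15 (edgeR adjusted p 0.668). SPCS1, another accessory subunit, ran over 124 to 193 CPM, with a slope of 0.04 (edgeR adjusted p 0.644), and overlaps the tested gene GLT8D1.

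In ER-associated degradation, which exports misfolded chains to the proteasome, no member passed. SYVN1 (HRD1), the ubiquitin ligase of the pathway, measured 48.1, 128 and 93.7 CPM in the very low class, 231, 413 and 115 in the low class, 151, 144 and 143 in the high class and 143, 190.3 and 179 in the very high class. Low replicate 2 was the highest, very low replicate 1 the lowest, and the 3 very low libraries were below the 3 very high ones, with a slope of 0.14 (edgeR adjusted p 0.663). SEL1L, the partner of SYVN1, had means in falling order of 132, 124, 108 and 103 CPM (slope -0.13, edgeR adjusted p 0.135). HERPUD1, a stress-induced scaffold of the same complex, had means of 125, 176, 113 and 116 CPM (slope -0.11, edgeR adjusted p 0.588), and its low libraries were all above its high ones. SYVN1 overlaps MRPL49 in the annotation.

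The 3 tested transcription factors of the UPR had slopes between -0.08 and -0.03, and none passed in any comparison. XBP1, which acts once IRE1 has spliced its mRNA, measured 406, 646 and 272 CPM in the very low class, 439.6, 375 and 475 in the low class, 345, 388 and 518 in the high class and 335, 316 and 472 in the very high class. Every class overlapped every other for XBP1, and its slope was -0.08 (SE 0.09, edgeR adjusted p 0.625). Counts per gene cannot tell spliced from unspliced XBP1. ATF4, which is made when PERK slows translation, measured 765, 498 and 413 CPM in the very low class, 591, 636 and 694 in the low class, 480.2, 543 and 561 in the high class and 601, 559 and 508 in the very high class. Its very low libraries spanned the range, the low libraries were above the high ones, and the slope was -0.03 (SE 0.08, edgeR adjusted p 0.826).

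DDIT3 (CHOP), the stress factor downstream of ATF4, had its peak in the low class, with 43.8, 47.5 and 53.0 CPM in the very low class, 56.9, 79.3 and 78.0 in the low class, 50.5, 44.5 and 40.8 in the high class and 61.3, 54.6 and 41.4 in the very high class. All 3 low libraries were above all very low and high libraries, and low replicate 1 lay below 1 very high library. Its slope was -0.04 (SE 0.09, edgeR adjusted p 0.820). DDIT3 overlaps the methionyl-tRNA synthetase gene in the annotation. The secreted UPR targets MANF and CRELD2, both released from stressed cells, had means of 96.4, 120.3, 71.4 and 74.8 and 50.0, 74.2, 45.7 and 44.6 CPM from very low to very high. Both were highest in low replicate 3, with slopes of -0.19 (edgeR adjusted p 0.310) and -0.13 (edgeR adjusted p 0.565).

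**Figure D5:**
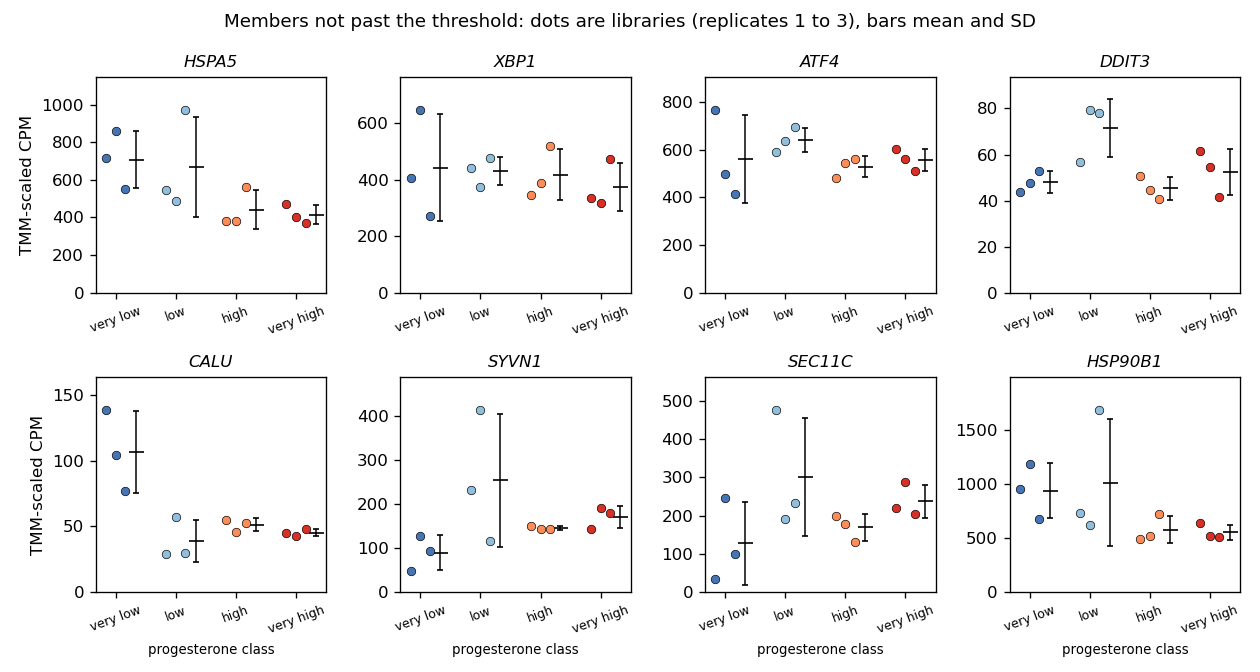
TMM-scaled CPM in each library (dots, replicates 1 to 3 from left to right; bars are the mean and SD, n = 3) for 8 members that missed the slope threshold, each axis starting at 0. HSPA5 and HSP90B1 peak in low replicate 3, CALU is high in the very low class alone, DDIT3 peaks in the low class, and the classes of XBP1 all overlap.

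The members' highest values sat mostly in very low replicates 1 and 2 and low replicate 3, the libraries where all tested genes peaked most often too. Very low replicate 1 held the highest value of 11 of the 37 members, among them P4HB, SSR4, CALU and KDELR2, where 22.6% of all tested genes peak. Very low replicate 2 held 10, among them PDIA4, HYOU1, TRAM1 and XBP1, against 21.6% of all genes. Low replicate 3 held another 10, HSPA5, HSP90B1, DNAJB11, PDIA6, CALR, SEC61G, SSR3, SPCS3, MANF and CRELD2, against 11.1% of all genes. No member had its highest value in any of the 6 high and very high libraries, each of which held the highest value of 2.39% to 7.18% of all genes. Very low replicate 1 was at the same time the lowest library for SEC11C, SYVN1, HERPUD1 and CRELD2, as for 23.1% of all genes. By role, chaperones were 0.78 above their 12-library median (mean log2 CPM deviation) in very low replicate 2, 0.76 in low replicate 3 and 0.21 in very low replicate 1. Translocon genes were 0.83 above it in very low replicate 1 but 0.16 in very low replicate 2.

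Outside the 40, a further 119 genes of the same secretory route were listed by role with earlier results of these data known, and 105 were tested. Of these 105, 12 passed the slope threshold, 10 falling and 2 rising, beside 7.48% of all tested genes, and the median slope was -0.13 against -0.04. With 1 to 3 genes past the threshold in each list, nothing is read from the lists singly. In N-glycosylation and glycan trimming 1 of 13 passed, STT3A, a catalytic subunit of the oligosaccharyltransferase, with means of 225, 193, 174 and 154 CPM from very low to very high (slope -0.18, edgeR adjusted p 0.0375). In oxidative folding 2 of 21 fell. TXNDC5, a disulfide isomerase, had means of 469, 431, 268 and 244 CPM (slope -0.35, edgeR adjusted p 0.0228). QSOX1, a sulfhydryl oxidase, had means of 592, 426, 143 and 122 CPM (slope -0.84, edgeR adjusted p 0.0348), with 176, 1299.7 and 300.1 CPM in the 3 very low libraries.

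Of the 12 tested genes of signal recognition and translocation, 1 passed and it rose, SEC61A2, the second alpha subunit of the SEC61 channel. It measured 32.2, 54.7 and 48.7 CPM in the very low class, 67.6, 90.1 and 36.3 in the low class, 79.2, 97.7 and 87.7 in the high class and 95.4, 129 and 117 in the very high class, and its slope was 0.44 (SE 0.09, edgeR adjusted p 0.0254). The 6 high and very high libraries exceeded all 3 very low libraries and low replicates 1 and 3, while low replicate 2 lay above high replicates 1 and 3. Its slope thus had the sign opposite to that of SEC61A1 (-0.22), a difference that was not tested. Among the further genes of ER-associated degradation, ERLEC1, a lectin of the pathway, fell, with means of 113, 107, 76.5 and 70.8 CPM (slope -0.25, edgeR adjusted p 0.0318).

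Among 15 genes of the UPR sensors and the ATF4 branch, 3 fell, and the third, ASNS (asparagine synthetase), is named after its values were seen. EIF2AK3, which encodes the sensor PERK, had means of 60.6, 48.0, 41.0 and 36.6 CPM (slope -0.24, edgeR adjusted p 0.0404). The seryl-tRNA synthetase gene SARS, an ATF4 target, had means of 240, 226, 140 and 137 CPM (slope -0.31, edgeR adjusted p 0.0313). In ER to Golgi transport 3 of 25 fell. They were SAR1A, a small GTPase named after its values were seen, and the coat subunits COPB2 (means of 285, 217, 194 and 176 CPM, slope -0.23, edgeR adjusted p 0.0328) and SEC13 (176, 149, 120 and 115 CPM, slope -0.22, edgeR adjusted p 0.0348). No gene of these lists passed in very high against very low, where the median difference of the 105 was -0.32.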

How the data were processed

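Values are raw read counts per gene symbol in 12 libraries, deposited by the authors as 1 whole-number table. Per the labels' protocols, Trizol RNA was DNase-treated, poly(A)-selected and made into stranded libraries sequenced as 1 pool in paired-end reads. Read checking (FastQC 0.11.2), trimming (Trimmomatic 0.32) and 2 genome builds (bosTau8, UMD3.1) are listed, per the submitters' processing notes. Which program aligned or counted the reads, with what strand setting and annotation, is not given in the sources used here. Where a member overlaps another gene, reads of the pair could be shared, which could not be checked here. Overlaps were read from a RefSeq gene table of another assembly, by whole-gene spans without regard to strand or exons, so no coordinates are printed. The called genes RPN2, DDOST and PDIA4 also overlap genes there, as do CALU, CANX, DNAJB11 and XBP1, but none of those genes was among the tested.

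The 40 members, the pathway lists and the marker lists were chosen with earlier results of these data known. Members are named by role. Those past the threshold are given in every library, as are HSPA5, XBP1, ATF4 and DDIT3, and where none passed, the 3 smallest p in each direction are named. Pathway genes are named up to 2 per list and direction, and 1 that passed is not reported here.

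Counts were fitted with edgeR 4.0.16 (R 4.3.3; filterByExpr with a count minimum of 10, TMM scaling, quasi-likelihood F test) over all 12 libraries. Benjamini-Hochberg adjustment ran over all 10959 tested genes at 0.05. Class means were contrasted, and a slope on class rank 1 to 4 was fitted separately. The rank is ordinal, because the label's bound for the low class is in another unit. CPM are TMM-scaled, and group values are means ± SD. CPM is not divided by transcript length, so levels are compared within a gene only. DESeq2 1.42.0, limma-voom 3.58.1, other scalings, filters, covariates and left-out libraries were alternatives. The code was tested on simulated data. Totals of 3772564 to 8379489 counts and a biological coefficient of variation of 44.0% limit the precision. Replicate pairs differed beyond sampling noise (20.0 to 258 times the chi-square that counting alone gives), and all were kept as separate samples.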

Additional observations from a re-analysis of the deposited data

How the results depend on the processing

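The 8 slope calls among the ER genes came with 7.48% of all genes called. Of the 8, RLE scaling left 5 (7.15% of all genes), library totals alone 2 (3.65%) and limma-voom 2 (3.28%). No filter on low counts left 3 (5.58%), thinning to the smallest library 4 (4.83%) and a linear contrast of class means 1 (6.37%). The smooth muscle and epithelial scores together left 0 (0.42%). DESeq2 called 13 (18.3% of all genes), which included all 8. Leaving out 1 library at a time gave 0 to 7 members, some of them not among the 8 (0.00902% to 13.2% of all genes). Using the low, high and very high classes only gave 0 (0.037% of all genes). Leaving out very low replicates 1 and 2 together leaves 1 library in that class, so calls are not counted for it. The median member slope was then -0.15, against -0.01 for all tested genes. Both of these settings were chosen after seeing the data. For very high against very low (0 calls), DESeq2 gave 11 (13.8% of all genes). There the smooth muscle score gave 11 (9 lower and 2 higher, with 16.5% of all genes), and leaving out 1 library 0 to 2 (0% to 5.79%). For high against low and low against very low (0 calls each), DESeq2 gave 1 and 2 (2.2% and 2.67% of all genes). The joint test (0 calls) gave 7 with DESeq2 (11.9% of all genes) and 5 with the smooth muscle score (4.12%). No alternative reversed the slope of any of the 8 genes, and the members' median slope was negative under all 24 alternatives, from -0.22 to -0.12. P4HB stayed called in 14 of the 24, TRAM1 in 11, SSR4 in 10, and the other 5 genes in 2 to 5 each. The medians of low against very low and of very high against high changed sign in some alternatives. The cause of these shifts was not tested.

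The deviations of same-numbered libraries correlated above 0.1 in 3 of 18 pairs, with a highest value of 0.29 (very low and low replicates 2). Differently numbered pairs were not computed, so this cannot decide whether replicate numbers pair the libraries. With the replicate number as a block, 0 members were called on the slope, 20 had an unadjusted p under 0.05, and 180 genes were called in all against 820.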
